A study of Mus musculus with 62 samples.

Results

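The actins compared here are the 5 genes Acta1, Actc1, Acta2, Actb and Actg1, taken by their symbols from the 47643 rows of a table of transcript levels in the tibialis anterior, a fast muscle of the lower leg, of mice injected with melanoma cells or mock injected. RNA was sequenced from 62 libraries in 12 groups, which cross 3 treatments with 2, 4, 6 and 8 weeks after injection. Con mice were mock injected, NCAC mice received non-cachectic melanoma cells and CAC mice received cachectic melanoma cells, cachexia being the muscle and weight loss of cancer. Each group held 5 libraries, except CAC at 8 weeks, which held 7. All mice are labelled female and 2 months old, and the labels name no transgene and no identity of the melanoma lines. The sample labels name the strain C57BL6/J, whereas the description of the series names NCI Ath/nude mice, so both names are given here; nude mice lack a thymus and hence mature T cells. Each library is labelled as its own biological replicate, and the labels do not say from which animal each came.

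Actin is the protein of the thin filament, along which myosin pulls to shorten the sarcomere. Mammals carry separate genes for closely related actins. Acta1 encodes the skeletal muscle α-actin of adult fibres, and Actc1 encodes the cardiac α-actin, which skeletal muscle also makes in the embryo, during regeneration and at a low level in the adult. Acta2 encodes the smooth muscle α-actin of vessel walls, pericytes and myofibroblasts. Actb and Actg1 encode the cytoplasmic β- and γ-actins of the cytoskeleton of all cells, and Actg2, the remaining gene of the family, encodes the γ-actin of enteric smooth muscle. Serum response factor (SRF) and its cofactors of the MRTF family bind the CArG box, a short DNA motif of CC, a run of A and T, and GG, in promoters of actin genes, and unpolymerised actin holds MRTF back in the cytoplasm.

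The genes lie on separate chromosomes of GRCm38 (mm10), all on the minus strand, per GENCODE M21. Acta1 lies at chr8:123891769-123894751, Actc1 at chr2:114047282-114053548 and Acta2 at chr19:34241090-34255590. Actb lies at chr5:142903115-142906754 and Actg1 at chr11:120345690-120348542. Coding regions of the pairs were 81.9% to 88.7% identical. Of 1424 windows of 50 bases along the Actc1 transcript, 0 recurred in a transcript of any other gene, and the share was 2.22% for Acta1 and 0.352% for Acta2. It was 14.2% for Actb and 56.7% for Actg1, so the levels of Actg1 and Actb depend on how the authors divided shared reads, which is not given. Of the copies that share most windows with Actg1, Gm12715 and Actg-ps1 were listed at 0 in all 62 libraries, and Gm8399 reached 0.292 TPM. Actc1 overlaps A530058N18Rik on the other strand and Acta1 overlaps Gm20388, and the kit marks strand, but whether counting used it is not given, so reads of overlapping genes may not be told apart. A530058N18Rik has no row of its own among the symbols used here, and Gm20388 was 8.8 to 58.6 TPM.

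The promoters of 3 of the genes held an exact CArG box within 250 bases upstream of the RefSeq start (GRCm38.p6), where 1.47% of 32851 promoters held one. The windows are shown because these genes share this motif while their RNA levels moved differently; the motif, CC, a run of letters that are each A or T, and GG, was searched on both strands and is in capitals. The motif starts 73, 47 and 90 bases before the start of Acta1, Actc1 and Actg1.
Acta1, chr8:123894819-123894868, minus strand: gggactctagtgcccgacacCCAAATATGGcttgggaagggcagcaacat
Actc1, chr2:114052893-114052942, minus strand: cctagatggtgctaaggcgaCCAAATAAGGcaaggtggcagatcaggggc
Actg1, chr11:120348556-120348605, minus strand: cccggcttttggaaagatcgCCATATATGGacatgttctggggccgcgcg
The Acta1 and Actg1 windows lie upstream of the GENCODE gene, and the Actc1 window lies inside the GENCODE gene but in none of its exons. Acta1 and Actc1 also held matches with 1 mismatch. Acta2 held matches with 1 mismatch only, in a stretch that GENCODE annotates as exon, and 8.59% of promoters held a match with at most 1 mismatch. Entries for Actb and Actg2 were not used here. A match describes letters and is not a bound site.

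Levels are given in TPM, a unit that corrects for transcript length and sums to 1000000 in each library, so genes can be set side by side. Tests of levels used limma on log2(TPM + 1) in 1 fit over all libraries, with p-values adjusted by Benjamini and Hochberg over 11107 genes in each of 21 contrasts, and a gene is called at an adjusted p under 0.05. Comparisons of CAC with Con and with NCAC share the CAC libraries, and those of CAC and NCAC with Con share the Con libraries, so their values are given side by side and not as separate evidence. In CAC muscle the median gene shifted upward, while the TPM of each library still summed to 1000000. The median log2 difference of all genes from Con was 0.13, 0.11, 0.38 and 0.46 at 2, 4, 6 and 8 weeks. Because that sum is fixed, other transcripts made up less of it. Mitochondrially encoded transcripts made up 33.5% to 41.5% of TPM in the CAC libraries of 6 and 8 weeks and 39.9% to 61.1% in Con and NCAC libraries. The differences the results turn on are therefore also given after rescaling the libraries by median-of-ratios size factors, which set the median shift at 6 and 8 weeks to 0.00 and 0.01. This changed the split of calls: 6741 genes were called higher and 362 lower than Con at 6 weeks as deposited and 1719 and 2130 after rescaling, and at 8 weeks 7707 and 565 became 2644 and 2771. The CAC libraries replicate 1 at 6 weeks and replicates 1 and 6 at 8 weeks stood farthest from the rest on the first principal component.

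Acta1 made up nearly all actin RNA in every library, at 96.5% to 99.3% of the TPM summed over the 5 genes. Its mean lay between 30966 and 36750.4 TPM in the 8 groups of Con and NCAC and the CAC groups of 2 and 4 weeks, and its median rank among all genes of a library was 6. At 6 weeks Acta1 was 12915, 24296, 26411, 31074 and 38545 TPM in CAC muscle, against 31299.9 to 36471 in Con and 19998 to 39240.1 in NCAC. At 8 weeks its lowest, median and highest values were 11706, 26326 and 33361 TPM in CAC, 21541, 29051 and 42011 in Con, and 27626, 32723 and 35941 in NCAC. The ranges overlapped at both weeks, and replicate 1 was the lowest CAC library at both weeks. The log2 difference from Con was -0.45 (SE 0.21, limma adjusted p = 0.065) at 6 weeks and -0.27 (SE 0.20, adjusted p = 0.221) at 8 weeks, so Acta1 did not pass the test. At 6 weeks it passed without CAC replicate 2, with -0.60 (limma adjusted p = 0.0171), and without CAC replicate 5, with -0.52 (adjusted p = 0.0416). Against NCAC the differences were -0.36 (adjusted p = 0.128) and -0.35 (adjusted p = 0.114), and the first passed without CAC replicate 2, with -0.52 (adjusted p = 0.0358), or without NCAC replicate 4, with -0.54 (adjusted p = 0.0347). Relative to the median gene, after rescaling, it was lower by a log2 difference of -0.89 (adjusted p = 0.000814) and -0.80 (adjusted p = 0.000649), both called, and against NCAC by -0.86 and -0.85 (adjusted p = 0.000831 and 0.000254). With mitochondrially encoded genes dropped, which also rescales a library, Acta1 was called lower as well, at -0.68 (adjusted p = 0.00376) and -0.56 (adjusted p = 0.0064) against Con. Group weights without rescaling gave an adjusted p of 0.0333 at 6 weeks.

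Of the 5 actins, Actc1 had the largest log2 differences between CAC and the other treatments at 4, 6 and 8 weeks. Its level in Con and NCAC muscle was low beside that of Acta1 and varied 12.5-fold among those 40 libraries, from 30.9 to 387 TPM with a median of 129. In CAC muscle at 6 and 8 weeks all 12 libraries lay between 1.35 and 21 TPM, below every library of Con and NCAC.

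At 2 weeks Actc1 was 38.8, 40.7, 52.4, 54.6 and 68.7 TPM in CAC muscle, 57.1, 118, 243, 262 and 336 in Con, and 112, 134, 204, 213 and 216 in NCAC. The CAC libraries lay below all NCAC libraries and overlapped the lowest Con library. Ranges of CAC and NCAC did not overlap for 2.76% of all genes, 0.135% with CAC lower, and those of CAC and Con for 1.97%, 0.027% with CAC lower. The log2 difference was -1.75 (SE 0.56, limma adjusted p = 0.381) from Con and -1.74 (SE 0.56, adjusted p = 0.553) from NCAC, neither called, and after rescaling -1.90 (adjusted p = 0.38) and -1.85 (adjusted p = 0.447). The difference of Actc1 from NCAC passed in a limma fit of only the 2 groups (adjusted p = 0.0123) and in an exact permutation test of the log2 levels, chosen after seeing the data (adjusted p = 0.0366 over 60 tests). At that week 0 of the 5 actins were called against Con or NCAC, 1 and 2 of them had an unadjusted p under 0.05, and 0.054% and 0.063% of all genes tested were called.

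At 4 weeks the CAC libraries held 5.25, 40.2, 43.6, 55.4 and 67.2 TPM of Actc1, the Con libraries 33.1, 63.5, 119, 150 and 154, and the NCAC libraries 185, 193, 198, 281 and 282. CAC overlapped Con and lay below all NCAC libraries, and 1 CAC library, replicate 2, was far below the rest of its group. Genes whose CAC libraries all lay below NCAC, whatever their place beside Con, were 1.18% of those tested. The difference from NCAC was -2.73 (SE 0.56, limma adjusted p = 0.00177) and was called, while that from Con was -1.43 (SE 0.56, adjusted p = 0.241) and was not, as also after rescaling, with -2.92 (adjusted p = 0.00118) and -1.55 (adjusted p = 0.169). Against NCAC 2 of 5 actins were called, beside 5.27% of all genes, 4.68% higher and 0.585% lower. Against Con 0 of 5 were called, with 1 at an unadjusted p under 0.05, beside 0.936% of all genes, 0.891% higher and 0.045% lower.

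At 6 weeks Actc1 was 6.67, 8.04, 10.3, 11.7 and 16.8 TPM in CAC muscle, against 32.5, 51.9, 62.3, 98.5 and 177 in Con and 67.9, 75.8, 98.8, 198 and 208 in NCAC. No CAC library reached the lowest library of either other group. The mean was 7.9-fold lower than in Con and 12.1-fold lower than in NCAC. The log2 differences were -2.69 (SE 0.56, limma adjusted p = 8.55e-05) and -3.38 (SE 0.56, adjusted p = 2.19e-06).

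At 8 weeks the CAC libraries held 1.35, 2.96, 5.52, 6.57, 8.28, 12.6 and 21 TPM, the Con libraries 41.9, 51.8, 63.5, 124 and 387, and the NCAC libraries 30.9, 62.5, 63, 161 and 212. The groups again did not overlap, and Con replicate 3 was the highest library, at 387 TPM. The mean was 16.1-fold lower than in Con, and 8.43-fold lower with Con replicate 3 left out, a step added after seeing the data. Against NCAC it was 12.7-fold lower. The log2 differences were -3.65 (SE 0.52, limma adjusted p = 4.92e-08) and -3.51 (SE 0.52, adjusted p = 1.06e-07). After rescaling these were -4.09 and -3.94, and at 6 weeks -3.11 and -3.85, all called. Leaving out single libraries moved the difference from Con at 8 weeks between -3.93 and -3.13, with the call held in each case.

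Genes called lower were 3.26% of all tested against Con at 6 weeks and 5.09% at 8 weeks, and 3.52% and 5.04% against NCAC, whereas 64% and 74.5% were called against Con in either direction. Genes whose CAC libraries all lay below Con were 1.95% and 0.684% of those tested, and below NCAC 1.22% and 1.12%. Actc1 was the only one of the 5 actins called lower there as deposited. The difference from Con was larger at 8 than at 2 weeks, by -1.89 on the log2 scale (SE 0.76, limma adjusted p = 0.0437), in a contrast where 39% of all genes were called in either direction and 2.57% lower, and by -2.19 (adjusted p = 0.041) after rescaling. This call for Actc1 was lost in 10 of 22 fits with 1 library left out: CAC replicates 1, 2 and 3 and Con replicates 1 and 2 at 2 weeks, and CAC replicates 1, 2 and 6 and Con replicates 1 and 3 at 8 weeks. The weakest of these, without Con replicate 3 at 8 weeks, gave -1.38 (adjusted p = 0.134). Within CAC muscle Actc1 fell by 2.77 from 2 to 8 weeks (limma adjusted p = 1.92e-05), and by 3.05 after rescaling (adjusted p = 1.15e-05), where 60.9% of all genes were called and 6.32% called lower. It fell by 1.59 from 4 to 6 weeks (adjusted p = 0.0275), and by 1.85 after rescaling (adjusted p = 0.0412), where 33.9% were called and 0.9% called lower. The second call was lost in 6 of 10 fits with 1 library left out, CAC replicates 1, 3, 4 and 5 at 4 weeks and 1 and 2 at 6 weeks, with values from -1.60 to -1.34 (adjusted p 0.0533 to 0.0864), and also without the 3 libraries farthest out (adjusted p = 0.0592).

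In NCAC muscle at 4 weeks Actc1 was 2.19-fold higher than in Con by its mean, and the ranges did not overlap. The limma difference was 1.31 (SE 0.56, adjusted p = 1, unadjusted p = 0.0231), while an exact permutation test of the log2 levels, chosen after seeing the data, gave a two-sided adjusted p of 0.0366 over 60 tests. In that comparison 0.486% of all genes had ranges that did not overlap. At 2, 6 and 8 weeks the Actc1 ranges of NCAC and Con overlapped, with log2 differences of -0.01, 0.69 and -0.13, in comparisons where 0.774%, 0.099% and 0.225% of all genes did not overlap. The other 4 actins differed by -0.61 to 0.15 over the 4 weeks. The lowest of these were Acta2 at 6 weeks, with -0.61 (limma unadjusted p = 0.0128), and Actg1 at 8 weeks, with -0.51 (limma unadjusted p = 0.0217). Between NCAC and Con 0 of the 5 actins were called by limma in any week, with 3 of 20 values at an unadjusted p under 0.05, beside 0.162%, 0%, 0% and 0.009% of all genes at 2, 4, 6 and 8 weeks.

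Acta2 moved the other way. At 6 weeks the smooth muscle actin was 70, 71, 73.9, 80.6 and 104 TPM in CAC muscle, against 41.6, 43, 47.8, 48.9 and 53.1 in Con and 15.7, 26.6, 33, 38.9 and 46.8 in NCAC. At 8 weeks CAC held 49.4, 53.2, 61.1, 81.3, 83.2, 93.4 and 113 TPM, Con 12.9, 31.2, 32, 35 and 35.2, and NCAC 20.3, 23.7, 26.3, 31.9 and 36.4. CAC lay above both other groups in every library at both weeks. Ranges did not overlap in either direction for 46.3% and 38.7% of all genes against Con and 44.3% and 41.2% against NCAC. The mean was 1.71-fold higher than in Con at 6 weeks and 2.61-fold higher at 8 weeks, with log2 differences of 0.75 (SE 0.24, limma adjusted p = 0.00581) and 1.38 (SE 0.22, adjusted p = 4.68e-07). Against NCAC the differences were 1.36 (adjusted p = 5.26e-06) and 1.40 (adjusted p = 3.36e-07). Genes called higher against Con were 60.7% of all tested at 6 weeks and 69.4% at 8 weeks, and against NCAC 64.2% and 67%, so a call upward was common. After rescaling, the difference from Con was 0.30 (adjusted p = 0.305) at 6 weeks, no longer called, and 0.86 (adjusted p = 0.00079) at 8 weeks. The differences of Acta2 from NCAC were 0.87 (adjusted p = 0.00217) and 0.90 (adjusted p = 0.000421) after rescaling, both called.

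At 2 weeks Acta2 had means of 60.5 TPM in CAC, 44.2 in Con and 38.1 in NCAC, and at 4 weeks 52.3, 40.6 and 29.2, with ranges of CAC that overlapped those of Con. Of these only CAC against NCAC at 4 weeks was called, with a log2 difference of 0.79 (SE 0.24, limma adjusted p = 0.0379). That call was lost in 7 of 10 fits with 1 library left out, CAC replicates 2, 3, 4 and 5 and NCAC replicates 3, 4 and 5, with values from 0.65 (adjusted p = 0.202, without CAC replicate 2) to 0.86 (adjusted p = 0.0637). It was also lost after rescaling, at 0.60 (adjusted p = 0.0963). The difference from Con was larger at 8 than at 2 weeks by 0.93 (SE 0.32, limma adjusted p = 0.0215), by 0.56 (adjusted p = 0.198) after rescaling, and by 0.67 (adjusted p = 0.0845) without Con replicate 5 at 8 weeks. Genes called in the upward direction there were 36.4% of all tested. From 4 to 6 weeks in CAC muscle, where 33% of all genes were called higher, Acta2 rose by 0.64 (adjusted p = 0.0336). That call was lost after rescaling, at 0.36 (adjusted p = 0.335), with mitochondrially encoded genes dropped, at 0.50 (adjusted p = 0.125), and without CAC replicates 1 or 4 at 4 weeks or 1 or 3 at 6 weeks, with 0.50 to 0.68 (adjusted p 0.0654 to 0.143).

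The order of the sarcomeric and the smooth muscle gene was exchanged in CAC muscle. Acta2 lay above Actc1 in 12 of 12 CAC libraries at 6 and 8 weeks, in 4 of 5 at 2 weeks and in 2 of 5 at 4 weeks. It lay above Actc1 in 2 of 20 Con libraries and 0 of 20 NCAC libraries. Actc1 exceeded Actb in 0 of 22 CAC libraries, in 8 of 20 Con libraries and in 14 of 20 NCAC libraries. By group means the order below Acta1 in CAC muscle at 6 and 8 weeks was Actb, Actg1, Acta2 and Actc1. Among Con groups Actc1 held the highest mean after Acta1 at 2 weeks, but its range there overlapped those of Actb and Actg1.

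Acta2 is also made by cells of the vessel wall, and in a whole muscle more cells of a type and more RNA per cell cannot be told apart. Of 9 smooth muscle markers, a list without Acta2, 8 passed the filter and 5 were called higher in CAC than in Con at 8 weeks, with a median log2 difference of 0.76 beside 0.46 for all genes, of which 69.4% were called higher and 5.09% lower. After rescaling 4 were called higher and 2, Smtn and Synpo2, lower, with a median of 0.36, beside 23.8% of all genes higher and 24.9% lower. Their TPM summed to 190.2 to 414 in CAC, 167 to 239.9 in Con and 215 to 227 in NCAC muscle, so the ranges overlapped, and 0 of the 9 were at 0 throughout a group. Tagln, an actin-binding protein of smooth muscle, was 98.5 ± 17.9 TPM (SD, n = 7) in CAC and 27.9 ± 5.2 (SD, n = 5) in Con, with a log2 difference of 1.79 (adjusted p = 5.56e-11). Myh11, the smooth muscle myosin, rose by 0.95 (adjusted p = 4.94e-05), Mylk, the kinase of its light chain, by 0.96 (adjusted p = 4.53e-08), and Myl9, that light chain, by 0.81 (adjusted p = 8.41e-05). After rescaling Tagln, Myh11 and Mylk were called at 1.27, 0.46 and 0.51, and Myl9 was not, at 0.29 (adjusted p = 0.142). Cnn1, named with the list's remaining members after its values were seen, rose by 0.72, whereas Smtn, Lmod1 and Synpo2 had values of -0.19, -0.00 and -0.47 and were not called. Actg2, the enteric actin of that list, fell under the filter, with 1.43 ± 0.583 TPM (SD, n = 7) in CAC and 0.423 ± 0.197 (SD, n = 5) in Con at 8 weeks.

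Endothelial markers moved in the same direction, with 8 of 9 called higher and 1 lower at 8 weeks and a median of 0.74, and 4 higher and 1 lower after rescaling with a median of 0.23. Among pericyte markers 5 of 7 were called higher, with a median of 0.44, and after rescaling 1 was called higher and 1 lower with a median of -0.08. Macrophage markers, with 7 of 7 tested called higher and a median of 1.05, summed to 104 to 289.5 TPM in CAC and 45.8 to 102 in Con, and 4 of the 7 were called higher and 0 lower after rescaling, with a median of 0.64. Of 7 fibroblast markers 2 were called higher, Dcn and Pdgfra, with a median of -0.06, and after rescaling 1 was called higher and 2 lower with a median of -0.56. These counts stand beside the same 69.4% and 23.8% of all genes called higher as deposited and after rescaling. The part of these cell types in the levels of Acta2, Actb and Actg1 was not tested.

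Actb, the cytoplasmic β-actin, was 75.2 to 176 TPM in Con and NCAC muscle. At 6 weeks it was 154, 162, 173, 175 and 178 TPM in CAC, against 83.1, 126, 135, 143 and 157 in Con and 89.1, 114, 121, 132 and 162 in NCAC, so CAC overlapped the top of both ranges. At 8 weeks CAC held 144, 151, 179, 190.3, 223, 234 and 262 TPM, Con 88.5, 130.3, 137, 145 and 147, and NCAC 102, 106, 117, 117 and 138. CAC lay above all NCAC libraries, and 1 CAC library, replicate 1, lay below 2 Con libraries. Ranges of CAC and NCAC at 8 weeks did not overlap in either direction for 41.2% of all genes. The log2 difference of Actb from Con was 0.41 (SE 0.19, limma adjusted p = 0.0516) at 6 weeks, not called, and 0.60 (SE 0.18, adjusted p = 0.00214) at 8 weeks. At 6 weeks it passed without Con replicate 1, with 0.49 (adjusted p = 0.0287), or 5, with 0.46 (adjusted p = 0.0458). Against NCAC it was 0.47 (adjusted p = 0.0272) and 0.74 (adjusted p = 0.000227), and the call at 6 weeks was lost without NCAC replicate 4, with 0.35 (adjusted p = 0.12), and without NCAC replicate 5, with 0.44 (adjusted p = 0.0503). That call was also lost with group weights (limma adjusted p = 0.0942) and by exact permutation of the log2 levels (adjusted p = 0.056). With mitochondrially encoded genes dropped, it was lost at 0.22 (limma adjusted p = 0.255). The call against Con at 8 weeks was then lost as well, at 0.31 (limma adjusted p = 0.0749). Genes called higher against Con were 60.7% of all tested at 6 weeks and 69.4% at 8 weeks, and against NCAC 64.2% and 67%. After rescaling, the differences of Actb from Con were -0.03 (adjusted p = 0.895) and 0.07 (adjusted p = 0.711), and those from NCAC were -0.03 (adjusted p = 0.887) and 0.23 (adjusted p = 0.194), with Actb called in none of these 4. From 2 to 8 weeks in CAC muscle, where 54.6% of all genes were called higher, Actb rose by 0.45 (adjusted p = 0.0227), a call lost after rescaling, at 0.10 (adjusted p = 0.602), and without CAC replicates 2 or 3 at 2 weeks or 2 at 8 weeks, with 0.35 to 0.40 (adjusted p 0.0618 to 0.103).

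Actb shares windows with Lrrc58, a leucine-rich repeat gene whose level itself differed. Lrrc58 lay between 5.13 and 10.9 TPM in Con and NCAC libraries, while its median in CAC was 16.2 at 6 weeks and 22 at 8 weeks. It reached 75.4, 132 and 109.8 TPM in the 3 libraries that stood farthest out. In those libraries Actb was 154, 144 and 151 TPM, the lowest values of their groups.

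Actg1, the cytoplasmic γ-actin, was 114, 132, 134, 138 and 146 TPM in CAC muscle at 6 weeks, inside the ranges of 84.7 to 174 in Con and 92.4 to 206 in NCAC. At 8 weeks CAC held 119.7, 125, 173, 203, 231, 234 and 242 TPM, Con 115, 143, 151, 169.8 and 171, and NCAC 78.5, 82.1, 103, 114 and 158. The CAC libraries overlapped both other groups at both weeks. The log2 difference from Con was 0.04 (SE 0.22, limma adjusted p = 0.875) at 6 weeks and 0.30 (SE 0.20, adjusted p = 0.169) at 8 weeks, with a 95% interval by the normal distribution from -0.09 to 0.70. Without the 3 libraries farthest out the difference of Actg1 from Con at 8 weeks was 0.53 (adjusted p = 0.0195) and was called. Of the Actg1 comparisons over all libraries only CAC against NCAC at 8 weeks was called, at 0.81 (SE 0.20, adjusted p = 0.000381), and after rescaling that difference was 0.31 (adjusted p = 0.171). Actg1 in NCAC differed from Con at that week by -0.51 (limma unadjusted p = 0.0217), not called. At 6 weeks the difference from NCAC was -0.07 (adjusted p = 0.785), and after rescaling -0.57 (adjusted p = 0.0213). The direction against Con turned with the scaling, to -0.40 (adjusted p = 0.113) at 6 weeks and -0.22 (adjusted p = 0.328) at 8 weeks. The ratio of Actg1 to Actb, added after seeing the data, passed an exact permutation test in 0 of 12 comparisons. Its lowest two-sided adjusted p was 0.0952, for CAC against NCAC at 6 weeks, where the mean log2 ratio was -0.35 in CAC and 0.19 in NCAC.

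**Figure D1:**
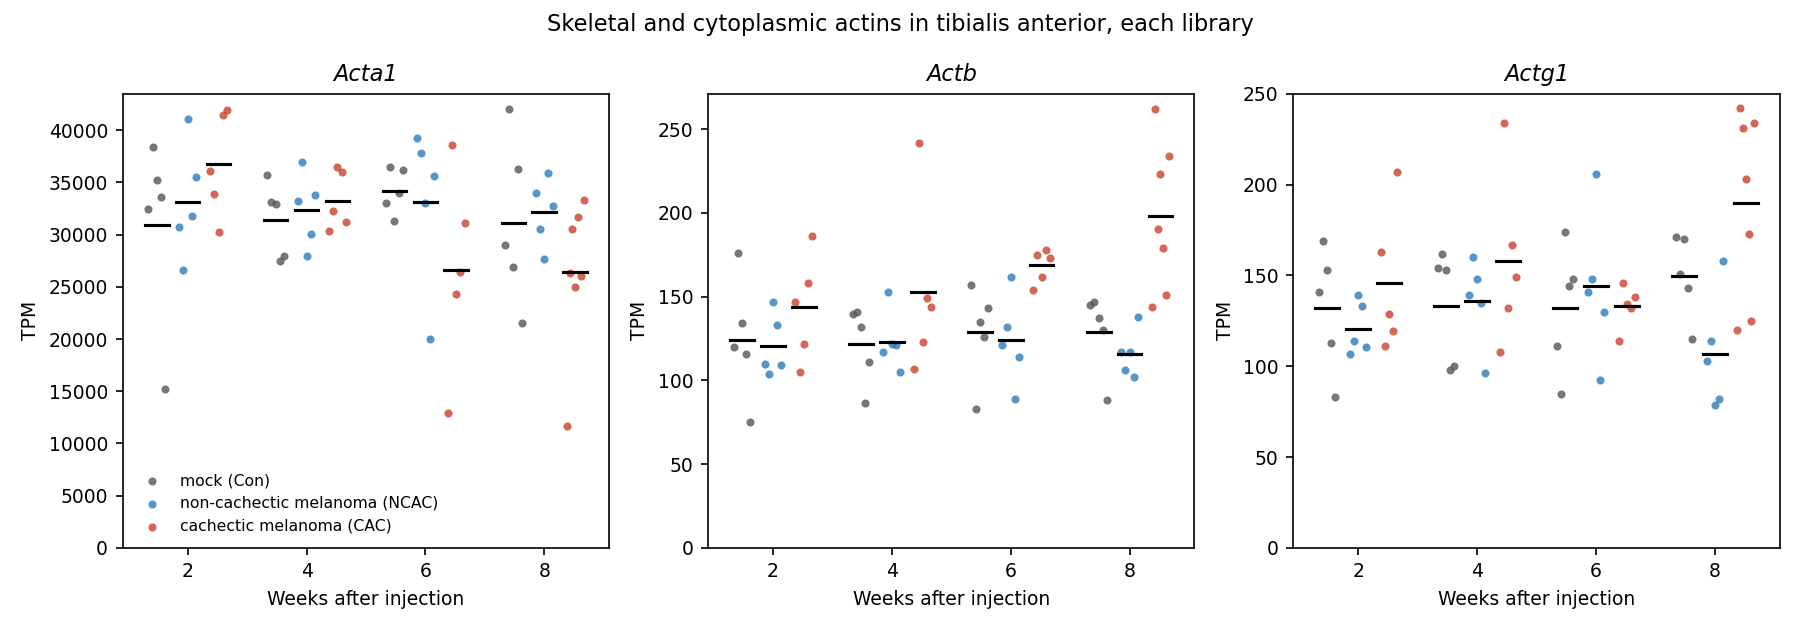
TPM of Acta1, Actb and Actg1 in each library by week after injection, on linear axes from 0; points are libraries, coloured by treatment, and bars are group means. Acta1 spreads from 11706 to 38545 TPM in CAC muscle at 6 and 8 weeks, and Actb at 8 weeks is 144 to 262 TPM in CAC and at most 147 in Con.

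In all, 2 of 5 actins were called against Con at 6 weeks and 3 of 5 at 8 weeks, beside 64% and 74.5% of all genes. Against NCAC 3 and 4 of 5 were called, beside 67.7% and 72.1% of all genes. Actc1 and Acta2 were called against both groups at both weeks, and Acta1 was called in 0 of the 12 comparisons between treatments as deposited, with 1 unadjusted p under 0.05. Within CAC muscle Acta1 fell by 0.53 from 2 to 8 weeks (limma adjusted p = 0.0188), by 0.89 (adjusted p = 0.000243) after rescaling, and by 0.35 (adjusted p = 0.0978) without CAC replicate 1 at 8 weeks.

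**Figure D2:**
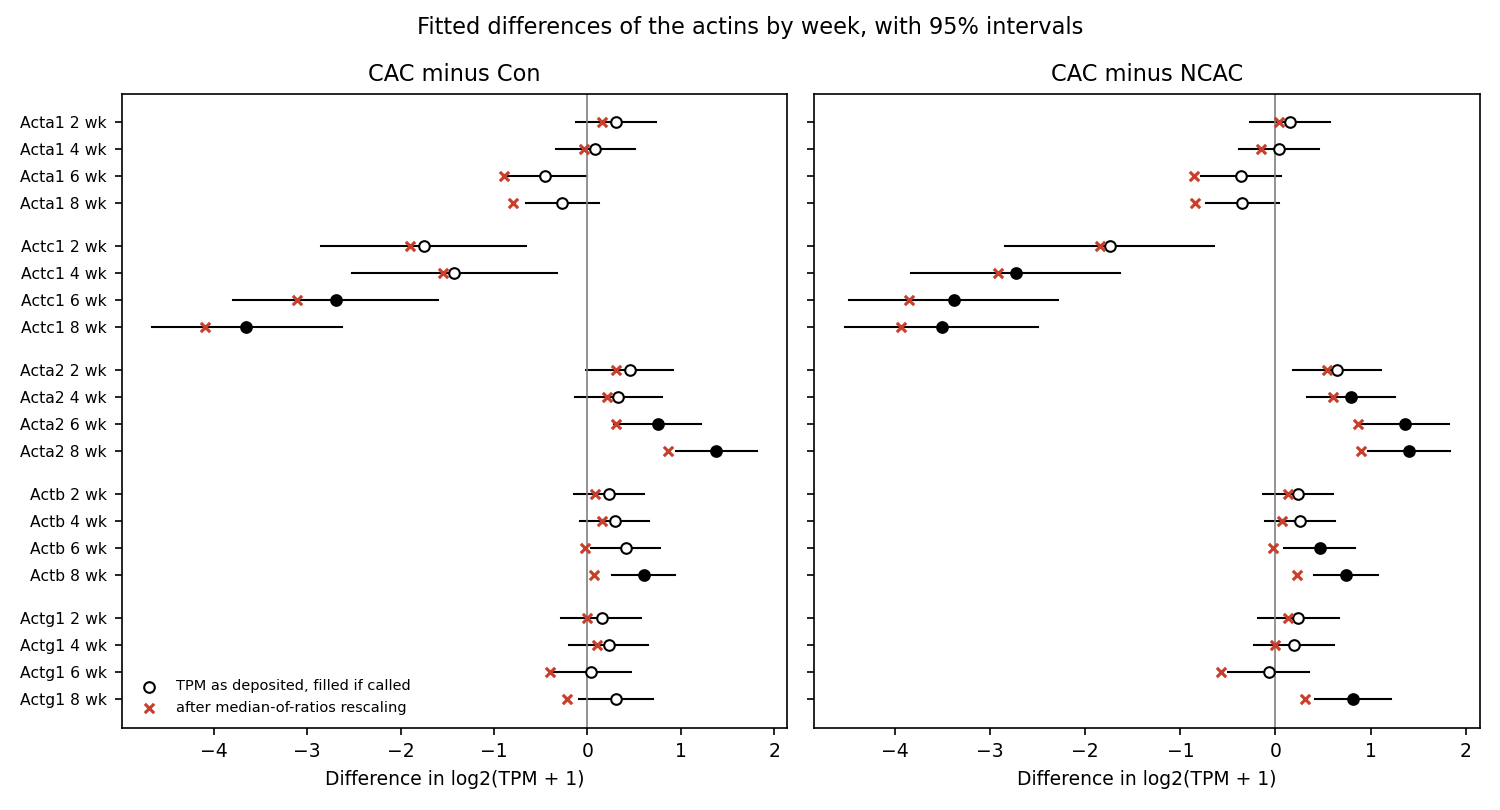
Fitted differences in log2(TPM + 1) of CAC minus Con (left) and CAC minus NCAC (right) for each actin and week; circles and lines are the limma estimate and its 95% interval by the normal distribution, filled where called, and crosses are the estimate after rescaling. Actc1 at 8 weeks lies at -3.65 and -3.51 as deposited and -4.09 and -3.94 after rescaling, while the Actb crosses at 6 and 8 weeks lie between -0.03 and 0.23.

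The share of each gene in the summed actin TPM does not depend on how a library is scaled. Acta1 made up 96.5% to 99.3% of that sum, so the share of each other gene also moves with the level of Acta1. After rescaling, Acta1, Actb and Actg1 in CAC at 8 weeks differed from Con by -0.80, 0.07 and -0.22 on the log2 scale. A higher share of Actb or Actg1 is therefore not by itself a higher level. Each share was compared with a two-sided exact permutation test in 60 comparisons. The smallest p such a test can give is 0.00794 with 5 against 5 libraries and 0.00126 with 7 against 5. The Actc1 share was 0.0463% ± 0.0261 (SD, n = 5) in CAC at 6 weeks, against 0.249% ± 0.183 (SD, n = 5) in Con and 0.398% ± 0.193 (SD, n = 5) in NCAC. At 8 weeks it was 0.0292% ± 0.0206 (SD, n = 7), against 0.47% ± 0.537 (SD, n = 5) and 0.321% ± 0.224 (SD, n = 5). It was lower in CAC than in NCAC at all 4 weeks and than in Con at 6 and 8 weeks, each with an adjusted p of 0.034 in the exact permutation test. At 2 and 4 weeks against Con the adjusted p of that exact test was 0.0866 and 0.136. With 1 library left out, the calls against Con and NCAC at 8 weeks and against NCAC at 4 weeks held in every fit. The Actc1 calls at 6 weeks were each lost in 5 of 10 fits, without any 1 CAC library, with exact permutation adjusted p up to 0.0866 against Con and 0.0794 against NCAC. The call against NCAC at 2 weeks was lost without CAC replicate 1, 2, 4 or 5, with an exact permutation adjusted p up to 0.0518.

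The Acta2 share at 8 weeks was 0.298% ± 0.092 (SD, n = 7) in CAC, against 0.0919% ± 0.0218 (SD, n = 5) in Con and 0.0868% ± 0.0274 (SD, n = 5) in NCAC. It was higher than in both at 6 and 8 weeks, each with an exact permutation adjusted p of 0.034. The Acta2 calls at 8 weeks held with any 1 library left out, while those at 6 weeks were lost without any 1 Con library (exact permutation adjusted p up to 0.0866) or NCAC library (up to 0.0547). The Actb share at 8 weeks was 0.782% ± 0.24 (SD, n = 7) in CAC and 0.419% ± 0.0717 (SD, n = 5) in Con, with an exact permutation adjusted p of 0.0354, and 0.36% ± 0.0581 (SD, n = 5) in NCAC, with 0.034. The Actg1 share passed against NCAC at 8 weeks, at 0.734% and 0.331% with an exact permutation adjusted p of 0.034. The Acta1 share was 98.9% in CAC and 98.6% in NCAC at 2 weeks, with an exact permutation adjusted p of 0.034, and passed in 0 of the other 11 comparisons. The Actc1 share was higher in NCAC, 0.689%, than in Con, 0.333%, at 4 weeks, with an exact permutation adjusted p of 0.034. With 1 library left out these calls were lost in part: Actb at 8 weeks without any 1 Con library (exact permutation adjusted p up to 0.067) and without NCAC replicate 1, 2 or 4 (up to 0.0529), Actg1 at 8 weeks without NCAC replicate 1 or 4 (up to 0.0519), Acta1 at 2 weeks without any 1 NCAC library (up to 0.0518), and Actc1 in NCAC against Con at 4 weeks without any 1 NCAC library (up to 0.0547).

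**Figure D3:**
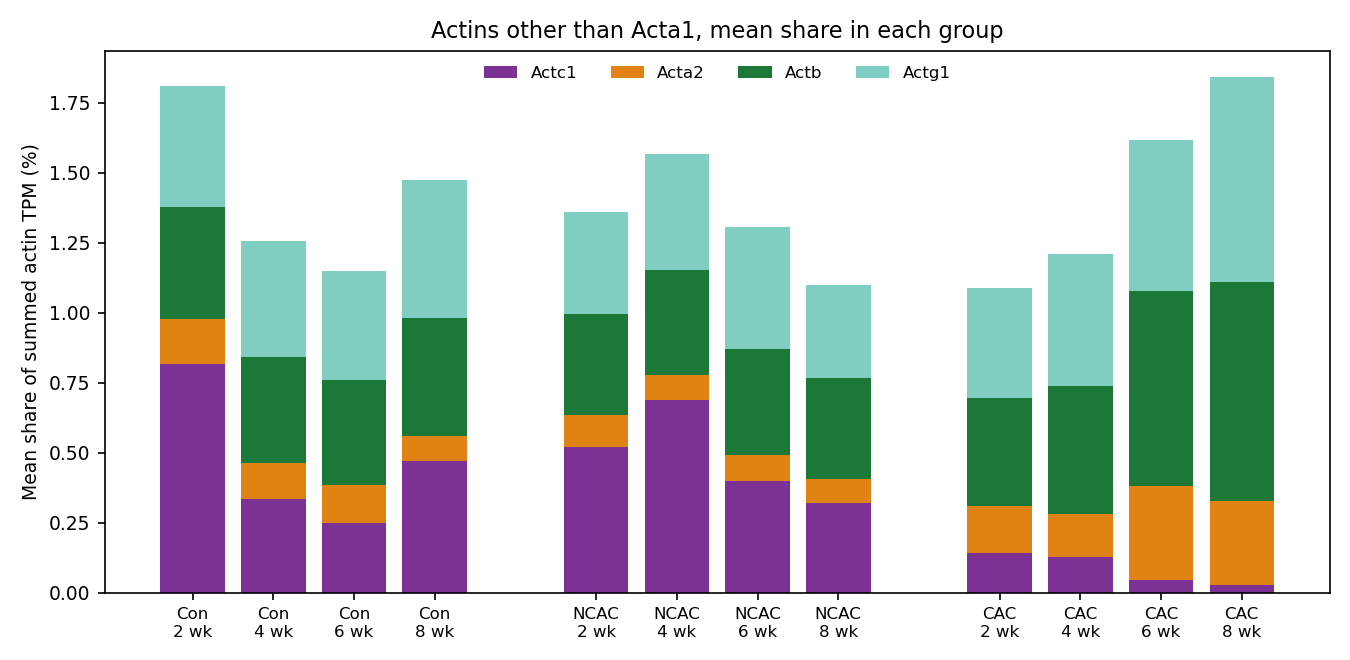
Stacked mean shares, in percent of the TPM summed over the 5 actins, of Actc1, Acta2, Actb and Actg1 in each of the 12 groups; the rest to 100% is Acta1. The Actc1 segment shrinks to 0.0463% and 0.0292% in CAC at 6 and 8 weeks, where the Actb segment is 0.696% and 0.782%.

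Genes whose log2 levels resembled each actin were ranked by Pearson's r over the 62 libraries among 6865 genes. These values describe libraries that share groups and treatment, so r within groups is given beside them and no test was made. For Actc1 they were Lrtm1 with 0.85, Ndufs1, a subunit of respiratory complex I, with 0.84, and Mtfp1, a mitochondrial fission protein, Grb14, an adaptor of the insulin receptor, and Cox7a1, a subunit of cytochrome c oxidase, with 0.81 each. Within groups these 5 values were 0.35 to 0.48.

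For Acta2 the genes were Flna, Myl9, Tagln, Csrp1 and Mylk, with r from 0.92 to 0.93 and 0.78 to 0.87 within groups. Flna encodes filamin A, which cross-links actin filaments. For Actb they were Bcar1, Ano6, Zyx, Actr3 and Mapre1, with 0.83 to 0.89, and for Actg1 they were Bcar1, Actb, Zyx, Pdgfb and Tax1bp3, with 0.72 to 0.84. Zyx encodes zyxin of focal adhesions, and Actr3 a subunit of the Arp2/3 complex that nucleates actin branches. For Acta1 they were Cdh13, Sema6c, Tpm2, Fam189b and Fitm1, with 0.75 to 0.79, where Tpm2 encodes the β-tropomyosin of the thin filament. Between the actins, r was 0.82 for Actb with Actg1 and -0.57 for Actc1 with Acta2, which was 0.16 within groups.

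Genes that assemble and regulate actin filaments were counted in CAC against Con at 8 weeks, where 69.4% of all genes were called higher and 5.09% lower. With rescaling, 2644 of all 11107 genes were called higher and 2771 lower. Of 20 partners of the thin filament, 7 were called higher and 2 lower, with a median log2 difference of 0.25 beside 0.46 for all genes. After rescaling 0 were called higher and 8 lower, with a median of -0.26. Capza1, which caps the barbed end, rose by 0.64 (limma adjusted p = 2.41e-08), and Cfl2, the muscle cofilin that severs filaments, by 0.58 (adjusted p = 7.82e-06). Tmod4, which caps the pointed end, rose by 0.47 and Actn3, the fast-fibre α-actinin of the Z-disc, by 0.86, with means of 4632 and 2667 TPM in CAC and Con.

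Of 24 genes of actin monomer and filament turnover, 23 were tested and 20 were called higher and 0 lower, with a median of 0.57, and after rescaling 7 were called higher and 2 lower. Arpc1b, an Arp2/3 subunit, rose from 6.91 to 16.4 TPM, by 1.16 (limma adjusted p = 2.97e-11), and after rescaling by 0.67 (adjusted p = 3.83e-07). Twf1, which binds monomers, rose by 1.01, Arpc5 by 0.87 and Dstn, the depolymerising factor destrin, by 0.89, and all 3 were also called after rescaling. Of 16 tested genes for actin folding and modification, 14 were called higher and 0 lower with a median of 0.47, among them the prefoldin subunits Pfdn5, Vbp1 and Pfdn2 with 0.75, 0.54 and 0.65 and the chaperonin cofactor Pdcl3 with 0.52. After rescaling 2 of these 16 were called higher and 3 lower. The counts of both lists stand beside 69.4% of all genes called higher and 5.09% lower as deposited, and 2644 and 2771 of 11107 after rescaling.

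Of 20 genes of the SRF and MRTF pathway, 14 were tested, and 8 were called higher and 1 lower, with a median of 0.56. After rescaling 1 was called higher and 3 lower, with a median of 0.11. These counts stand beside 69.4% of all genes called higher and 5.09% lower as deposited, and 2644 and 2771 of 11107 after rescaling. Flna rose from 14.3 to 32.9 TPM, by 1.15 (limma adjusted p = 1.06e-07) and by 0.65 (adjusted p = 0.000262) after rescaling. Rhoa, a GTPase that promotes actin polymerisation, rose by 0.62, its effector kinase Rock1 by 0.60 and Zyx by 0.64, and these 3 were not called after rescaling.

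Markers of fibre and other cell types were set beside the sarcomeric actins in CAC against Con at 8 weeks. There 69.4% of all 11107 genes were called higher and 5.09% lower, and after rescaling 2644 were called higher and 2771 lower. Fast-fibre markers, 3 of 11 called higher and 5 lower with a median of 0.10, summed to 85506 to 123065 TPM in CAC and 77609 to 117801 in Con at 8 weeks, with 0 markers at 0 in either group. Myl1, the fast myosin light chain, fell by 0.68 (limma adjusted p = 0.00211), whereas Tnni2, Atp2a1 and Ckm rose by 0.36, 0.67 and 0.39. Only the 4 fast-fibre markers of smallest adjusted p are named, so the other markers called lower are not listed. After rescaling 0 fast-fibre markers were called higher and 6 lower, with a median of -0.43. Myl1 was then at -1.21 (adjusted p = 2.68e-06), and Tnni2, Atp2a1 and Ckm, at -0.17, 0.15 and -0.14, were not called. Of 9 slow-fibre markers 3 were called higher, Atp2a2, Tpm3 and Myh7b, and 1 lower: Myl3, the slow and ventricular light chain, fell by 1.48 (adjusted p = 0.00858), with 13.8 and 31.7 TPM. The slow list summed to 33.4 to 108 TPM in CAC and 36.7 to 78.8 in Con. After rescaling 2 slow-fibre markers were called higher and 1 lower, and Myh7b, at 0.28, was not called.

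Of 8 cardiac markers 3 were tested and 2 were called higher, Sln, the sarcolipin that inhibits the calcium pump, with 33.1 and 2.63 TPM (log2 difference 3.07, limma adjusted p = 1.12e-08), and Tnnt2, with 1.57 and 0.719. After rescaling Sln was called, at 2.59, and Tnnt2, at 0.25, was not. The cardiac list summed to 11.5 to 87.9 TPM in CAC and 2.56 to 7.2 in Con, with Myl7 at 0 in all libraries of both groups at 8 weeks. Most of the CAC sum was Sln, with a mean of 33.1 TPM beside a mean sum of 37.4, so the sum does not describe the list as a whole. Of 12 myogenic and regeneration markers 7 were tested and 3 were called higher, Chrna1, Cdh15 and Myog, with 0.86, 0.74 and 0.85, and 0 lower, and after rescaling 1 was called higher, Chrna1, and 1 lower. Erythroid markers had 0 of 5 called, with 1 of the CAC libraries at a sum of 14744 TPM, and 0 of 7 lymphocyte markers passed the filter, with Cd3e at 0 in all CAC libraries of 8 weeks. Of 7 melanocyte markers 2 were tested and called higher, Mitf and Sox10, at 7.55 and 1.5 TPM, and the list summed to 6.08 to 14.5 TPM in CAC and 4.92 to 6.33 in Con, with Tyr and Tyrp1 at 0 in all Con libraries of 8 weeks. After rescaling 0 melanocyte markers were called. The counts of these lists stand beside 69.4% of all genes called higher and 5.09% lower as deposited. After rescaling 2644 of all 11107 genes were called higher and 2771 lower. The part of fibre type and of these cells in the level of Actc1 was not tested.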

How the data were processed

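Muscle RNA was taken up in Trizol, and TruSeq stranded mRNA libraries were sequenced on an Illumina NovaSeq, per the labels' protocols. The TPM values are the authors' own, deposited as a single table in which each of 62 columns sums to 1000000; columns were matched to samples by title and 0 were left unmapped. The submitters' processing notes name the build mm10, while aligner, counter, annotation and read length were not given in the sources used here. TPM keeps no read depth, so no count test was run. As a guide only, with a range of step sizes narrowed after seeing the data, steps between low values and GENCODE M21 exon lengths put the lowest Actc1 value at about 42 reads.

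Values were transformed as log2(TPM + 1), the 11107 genes whose mean reached 1 TPM were kept, and limma 3.58.1 in R 4.3.3 was fitted with 1 mean per group, 50 residual degrees of freedom and a mean-variance trend. The spread was taken as equal in all groups. Fold changes on the log2(TPM + 1) scale understate those of low genes. Shares and ratios were tested with exact permutation tests in Python 3.11.15, adjusted over 60 share tests, 60 level tests and 12 ratio tests. P-values measure the spread between these libraries. The scripts were tested on simulated data. No column was identical to another, and the closest of 131 pairs within groups had a median absolute log2 difference of 0.101.

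The 5 actins and the gene and marker lists were chosen with earlier results of these data known. Named genes are the actins, Actg2, from each list, at most 4 genes called in CAC against Con at 8 weeks, taken by adjusted p, and the 5 genes of highest Pearson correlation with each actin, where the mean reached 5 TPM and the symbol was not that of a predicted gene or clone. Other settings tried were 0.1 as pseudocount, keeping all genes, rescaling, dropping mitochondrially encoded genes, fits of only the groups compared, a replicate block, group weights, leaving out each library and leaving out the 3 libraries farthest out, with a wider sum and ratios to Acta1 for shares.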

Additional observations from a re-analysis of the deposited data

Results flagged for a closer look

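In 120 groups of values, the 5 actins as TPM and as shares in 12 groups, 9 values, from 5 libraries, stood apart from the rest of their group; chance flags about 1 in 20 groups. Con replicate 5 at 2 weeks had the lowest Acta1 of its group, 15186 TPM, with the lowest Acta1 share, 96.5%, and the highest Acta2 share, 0.323%. CAC replicate 1 at 8 weeks had the lowest Acta1, 11706 TPM. Con replicate 3 at 8 weeks had the highest Actc1, 387 TPM, and the highest Actc1 share, 1.4%. Con replicate 5 at 8 weeks had the lowest Acta2, 12.9 TPM, and the lowest Actb, 88.5 TPM. NCAC replicate 5 at 2 weeks had the highest Acta2, 51.9 TPM.

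The difference between CAC and Con itself differed between 8 and 2 weeks for Actc1, by -1.89 (limma adjusted p = 0.0437), and for Acta2, by 0.93 (limma adjusted p = 0.0215), both on the log2 scale. In that contrast 39% of all genes were called. The Actc1 call was lost in 10 of 22 fits with 1 library left out. The Acta2 call was lost after rescaling, at 0.56 (limma adjusted p = 0.198). Both calls were lost in a fit of only the groups compared (limma adjusted p = 0.0754 and 0.0543).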

How the results depend on the processing

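The levels of Actc1 and Acta2 in CAC against Con and NCAC at 6 and 8 weeks kept direction and limma call in each fit with 1 library left out, whereas share calls at 6 weeks did not. The cause of the changes below was not tested. Of 5 actins called, CAC against NCAC at 2 weeks went from 0 to 1 in a fit of only the groups compared and by exact permutation, NCAC against Con at 4 weeks from 0 to 1 by exact permutation, and CAC against NCAC at 4 weeks from 2 to 1 with no filter, rescaling, no mitochondrially encoded genes, only the groups compared, exact permutation, or 1 library left out (1 to 2). CAC against Con at 6 weeks went from 2 to 4 with group weights. CAC at 6 against 4 weeks went from 2 to 0 with no filter, only the groups compared, or without the 3 libraries farthest out (0 to 2 with 1 left out). The difference between 6 and 2 weeks went from 0 to 1 with rescaling, no mitochondrially encoded genes or weights (0 to 1 with 1 left out), and that between 8 and 2 weeks from 2 to 1 with no filter, weights or without the 3 farthest, and to 0 with only the groups compared (1 to 2 with 1 left out).

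Directions turned with rescaling and with mitochondrially encoded genes dropped for Acta1 at 4 weeks, at -0.04 and -0.01 against Con and -0.15 and -0.06 against NCAC, and for Actg1 against Con at 6 weeks, at -0.40 and -0.19. Rescaling alone turned Actg1 against NCAC at 4 weeks to -0.00 and against Con at 8 weeks to -0.22, and Actb against Con and against NCAC at 6 weeks to -0.03. With 1 library left out, Actg1 spanned -0.01 to 0.25 in CAC against Con at 2 weeks, -0.11 to 0.15 at 6 weeks and -0.22 to 0.07 against NCAC at 6 weeks. Acta1 spanned -0.01 to 0.09 in CAC against NCAC at 4 weeks, and Actc1 -0.40 to 0.23 and -0.46 to 0.38 in NCAC against Con at 2 and 8 weeks.

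Share calls with 5 against 5 libraries sit at the smallest p a permutation can give, 0.00794. At 8 weeks, with 7 against 5, the unadjusted exact permutation p of the called shares ran from 0.00126 to 0.00884. Acta1 against NCAC at 2 weeks gave 0.271 points with Actg2 and Actg-ps1 in the sum (exact permutation adjusted p = 0.0501). As a log2 ratio to Acta1, Acta2 against NCAC at 4 weeks was 0.77, and Actb at 6 weeks 0.86 against Con and 0.83 against NCAC, each with an exact permutation adjusted p of 0.0448. Without the 3 libraries farthest out, Actc1 at 6 weeks was -0.211 points against Con and -0.359 against NCAC, each with an exact permutation adjusted p of 0.0752. With 1 library left out, shares in points of CAC against Con spanned, at 2 weeks, 0.31 to 0.884 for Acta1, -0.842 to -0.345 for Actc1, -0.0115 to 0.047 for Acta2 and -0.0332 to 0.00173 for Actb. At 4 weeks they spanned -0.0191 to 0.171 for Acta1, -0.268 to -0.155 for Actc1 and -0.00444 to 0.0865 for Actg1. At 6 weeks they spanned -0.241 to -0.126 for Actc1, 0.148 to 0.237 for Acta2 and 0.204 to 0.382 for Actb, and at 8 weeks -0.53 to -0.207 for Actc1, 0.294 to 0.401 for Actb and 0.197 to 0.283 for Actg1. Against NCAC they spanned, at 2 weeks, 0.219 to 0.319 for Acta1 and -0.423 to -0.337 for Actc1, and at 4 weeks 0.292 to 0.482 for Acta1, 0.0485 to 0.0793 for Acta2 and -0.0059 to 0.085 for Actg1. At 6 weeks they spanned -0.407 to -0.297 for Actc1, 0.189 to 0.278 for Acta2 and 0.202 to 0.38 for Actb, and at 8 weeks -0.877 to -0.611 for Acta1, 0.353 to 0.459 for Actb and 0.359 to 0.446 for Actg1. NCAC against Con spanned, for Actc1, -0.463 to 0.0339 at 2 weeks, 0.295 to 0.408 at 4 weeks and -0.238 to 0.0841 at 8 weeks.

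Replicate numbers did not pair the samples: deviations of same-numbered samples correlated between -0.332 and 0.332 with a median of -0.0276, and 15 of 60 pairs lay over 0.1, as did 64 of 260 pairs with other numbers. With a replicate block, Actc1 in CAC against Con at 6 weeks was -2.69 (limma adjusted p = 3.43e-05), and the block changed no count of called actins. Values of the actins in the remaining contrasts, which are not given one by one, were set apart after they were seen: of 1138 settings of 54 log2 differences 72 changed sign and 12 passed the threshold, and of 204 settings of 16 shares 15 changed sign and 3 passed it. Read depth is not given with TPM, so its limit on low values of Actc1 and Actg2 is unknown.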
